A study of Mus musculus with 6 samples.

Results

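The NADPH oxidase of phagocytes is the enzyme complex that makes superoxide, and its subunit genes were followed across 6 RNA-seq libraries of mouse peritoneal macrophages. The 6 members were Cybb, Cyba, Ncf1, Ncf4, Rac1 and Rac2, taken by gene symbol from the 25509 gene rows of the count table, with 1 row for each. All 6 passed the filter on low counts that left 12827 genes for testing. Tg-ACE macrophages came from mice that overexpress angiotensin-converting enzyme, a peptidase encoded by Ace, and WT macrophages from wild-type mice, with 3 libraries each. Both groups were C57BL/6 and had been given thioglycollate, a sterile irritant used to recruit macrophages to the peritoneum. Cells were collected on day 4, purified on Percoll and kept if they adhered within 2 h, and poly-A RNA was sequenced as single reads of 75 bases. The labels give neither age nor sex, nor the promoter that drives ACE, nor whether each replicate is a mouse of its own. The p-values therefore measure only how these libraries vary, which may be technical. The sample labels call the overexpressing group JWT (Tg-ACE), whereas the design text of the series writes Tg-NKO. The labels also hold an experiment code, which is Exp-156 for replicate 1 of either genotype and Exp-156b for replicates 2 and 3. The meaning of the codes is not given.

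In resting phagocytes the oxidase lies unassembled. Its catalytic core, flavocytochrome b558, sits in membranes as a pair of proteins, gp91phox from Cybb and p22phox from Cyba. Upon activation cytosolic subunits, among them the organizer p47phox (Ncf1) and the phosphoinositide-binding p40phox (Ncf4), move to the membrane together with a Rac GTPase, and electrons from NADPH are then passed across the membrane to oxygen. Macrophages and neutrophils use the superoxide and the hydrogen peroxide that follows against ingested microbes. Loss of a core subunit causes chronic granulomatous disease in humans.

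Library totals ranged from 24294258 to 28120394 expected counts. Ace stood at 100.6, 25.6 and 31.8 CPM (counts scaled to a common library size) in Tg-ACE libraries, against 16.7, 7.59 and 11.6 CPM in WT libraries. All Tg-ACE libraries thus lay above all WT libraries, although the log2 fold change of 1.95 (SE 0.23) had an adjusted p of 0.136 by the edgeR quasi-likelihood test that has the experiment code as a term. Ace passed in DESeq2, without the low-count filter and without WT replicate 3 (2.24, edgeR adjusted p = 0.0154), and it was also higher in Exp-156 than in Exp-156b (1.39, edgeR adjusted p = 0.00258). Of the macrophage genes, the lysozyme gene Lyz2 lay between 14299 and 18005 CPM and Cd68 between 1953 and 2218 CPM, whereas others varied widely between libraries, with Adgre1 between 213.4 and 645.3 CPM and Fcgr1 between 17.2 and 154.6 CPM. The libraries separated by experiment code on the first principal component, which held 74.6% of the variance. Sex-linked transcripts also followed the code. Xist, which coats the inactive X of female cells, had 0.527 and 0.409 CPM in Exp-156, against 327.1 to 454.2 CPM in Exp-156b. Any difference between the codes therefore cannot be told apart from a difference between sexes.

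The members were expressed at high levels. Per kilobase of annotated exon, Cyba was the most abundant, with a level of 703.6 ± 114.5 CPM per kb over the 6 libraries (SD, n = 6). Cybb followed at 145.1 ± 14.7, then Ncf1 at 108.0 ± 47.6, Ncf4 at 91.5 ± 7.85, Rac2 at 78.2 ± 16.9 and Rac1 at 68.6 ± 8.16 CPM per kb. Only Cyba stood clear of its neighbour, with its lowest library at 576.5 CPM per kb and the highest Cybb library at 166.5 CPM per kb. Every other pair of neighbours in that order overlapped across libraries. Their mean levels lay between the 95.1 and 99.6 percentiles of the 12801 tested genes with an annotated exon length.

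Members differed in how steady they were. The range of log2 CPM over the 6 libraries was 0.37 for Rac1, 0.38 for Ncf4, 0.43 for Cybb, 0.61 for Cyba, 0.82 for Rac2 and 1.43 for Ncf1, where the median range of all tested genes was 0.56. Ncf1 was thus the most variable member, with a wider range than 84.7% of tested genes.

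No member differed between Tg-ACE and WT macrophages beyond the spread between libraries. With the experiment code as a term, 0 of 6 members passed at a Benjamini-Hochberg adjusted p of 0.05 in edgeR, where 0.0156% of all 12827 tested genes passed. At an unadjusted p under 0.05 the count was also 0 of 6, beside 6.48% of tested genes, and DESeq2 and limma-voom with the same terms each called 0 of 6. DESeq2 called 0.296% of tested genes. The median log2 fold change of the members was 0.01, beside -0.01 over all tested genes. In 0 of 6 members did the 3 Tg-ACE libraries lie entirely to one side of the 3 WT libraries, which 4.91% of tested genes did.

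**Figure D1:**
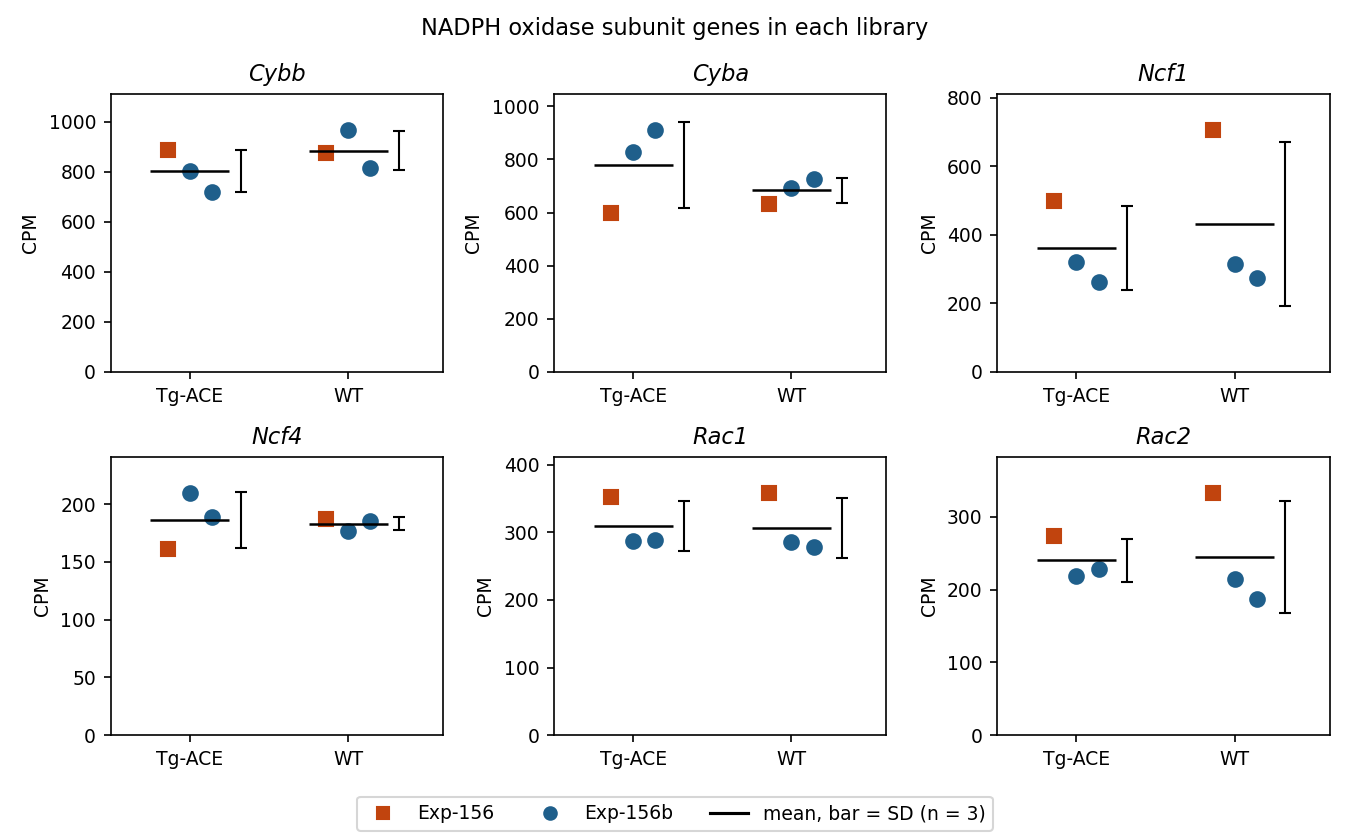
CPM of the 6 subunit genes in each library, with Tg-ACE on the left and WT on the right of each panel; squares are Exp-156 libraries, circles Exp-156b libraries, and bars show the mean and SD of 3 libraries. The genotypes overlap in every panel, and the squares sit highest for Ncf1, Rac1 and Rac2 and lowest for Cyba.

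Cybb encodes gp91phox, which carries the heme and flavin of the core, and lies on chromosome X at 9435252 to 9487771 (reverse strand, GRCm38). It stood at 885.9, 801.5 and 717.9 CPM in Tg-ACE libraries, against 872.6, 966.9 and 812.5 CPM in WT libraries. The groups overlapped, and the log2 fold change was -0.14 (SE 0.10, edgeR adjusted p = 0.823). Cyba encodes p22phox, which stabilizes gp91phox and docks p47phox, and lies on chromosome 8 at 122424776 to 122432930 (reverse strand). It stood at 598.9, 826.8 and 911.4 CPM in Tg-ACE libraries, against 630.9, 691.1 and 727.4 CPM in WT libraries. The 2 highest values were both Tg-ACE and so was the lowest, and the log2 fold change was 0.17 (SE 0.09, edgeR adjusted p = 0.791), the smallest adjusted p of the 6 members.

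Among the cytosolic subunits, Ncf1 encodes p47phox, whose phosphorylation starts assembly, and lies on chromosome 5 at 134220053 to 134229625 (reverse strand). It stood at 497.4, 322.2 and 261.4 CPM in Tg-ACE libraries, against 706.2, 314.0 and 272.8 CPM in WT libraries. The replicate 1 libraries were the highest of each genotype, and the log2 fold change was -0.17 (SE 0.13, edgeR adjusted p = 0.837). Ncf4, the p40phox gene on chromosome 15 at 78244801 to 78262580 (forward strand), stood at 161.3, 209.6 and 188.7 CPM in Tg-ACE libraries, against 187.5, 176.4 and 185.8 CPM in WT libraries. The WT values fell inside the Tg-ACE range, with a log2 fold change of 0.02 (SE 0.09, edgeR adjusted p = 0.975).

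The GTPase genes had the smallest fitted genotype differences of the members. Rac1, the form found in most tissues, lies on chromosome 5 at 143503634 to 143528036 (reverse strand), and Rac2, the form restricted to blood cells, on chromosome 15 at 78559167 to 78572783 (reverse strand), near Ncf4. Rac1 stood at 352.6, 286.5 and 289.2 CPM in Tg-ACE libraries, against 357.9, 285.5 and 277.6 CPM in WT libraries (log2 fold change 0.01, SE 0.06, edgeR adjusted p = 0.972). Rac2 stood at 273.7, 219.0 and 227.9 CPM in Tg-ACE libraries, against 332.7, 214.2 and 187.9 CPM in WT libraries (log2 fold change 0.01, SE 0.10, edgeR adjusted p = 0.993). The sign for Ncf4, Rac1 and Rac2 depended on single libraries or on scaling, so no direction is given for them. Rac1 and Rac2 were present at similar levels per kb, and the Rac1 to Rac2 ratio was 0.89, 0.90 and 0.88 in Tg-ACE libraries, against 0.74, 0.92 and 1.02 in WT libraries.

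Within the experiment codes the genotype differences ranged from -0.51 to 0.29 on the log2 scale, and for 5 of 6 members they had opposite signs in the 2 codes, as for 53.6% of tested genes. The log2 fold change in Exp-156, with 1 library per genotype, and that in Exp-156b were -0.51 and -0.01 for Ncf1, -0.28 and 0.15 for Rac2, -0.22 and 0.14 for Ncf4, -0.07 and 0.29 for Cyba, 0.02 and -0.23 for Cybb, and -0.02 and 0.03 for Rac1. The interaction of genotype with code passed for 0 of 6 members and 0% of all genes (edgeR adjusted p at least 0.646 for each member). At an unadjusted p under 0.05 it was met by 3 members (Rac2, Ncf4 and Cyba) and by 7.65% of tested genes.

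The experiment codes, by contrast, set most members apart. Ncf1, Rac2 and Rac1 were higher and Cyba lower in Exp-156 than in Exp-156b, while Cybb and Ncf4 did not pass. Thus 4 of 6 members passed for the code in edgeR with genotype as a term, 3 of them higher and 1 lower. This has to be read against a background in which 42.9% of all tested genes passed, 22.9% higher and 20.0% lower, and 51.5% had an unadjusted p under 0.05. Without Tg-ACE replicate 1 the number of genes that passed was 3409 and without WT replicate 1 it was 3448, where 5502 passed with all libraries. The same 4 members did not overlap between the codes, as 59.8% of tested genes did not, 30.9% with Exp-156 above and 28.9% with Exp-156 below. The median log2 fold change was 0.21 over the members and 0.00 over all tested genes.

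**Figure D2:**
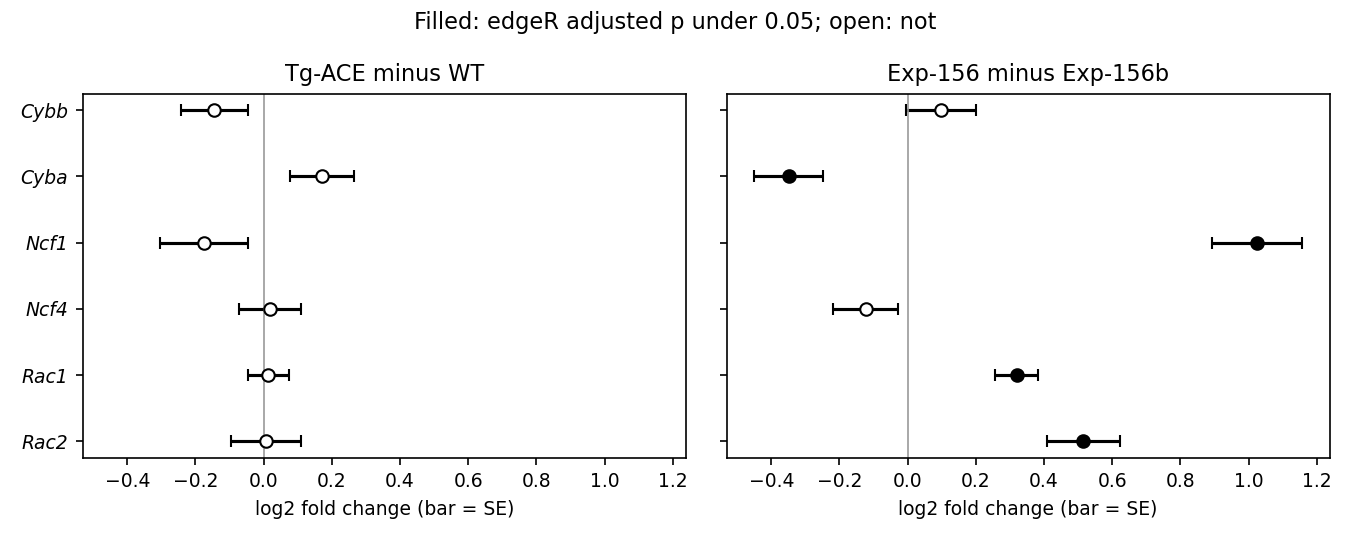
Log2 fold changes of the 6 members with standard errors, for Tg-ACE minus WT on the left and Exp-156 minus Exp-156b on the right; filled points had an edgeR adjusted p under 0.05. All 6 genotype differences are open, and Ncf1 shows the largest code difference, at 1.03.

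Ncf1 moved the most. It stood at 497.4 and 706.2 CPM in the 2 Exp-156 libraries, against 322.2, 261.4, 314.0 and 272.8 CPM in the 4 Exp-156b libraries, a log2 fold change of 1.03 (SE 0.13, edgeR adjusted p = 8.5e-04). Both Exp-156 libraries lay above all 4 others, and the ratio of the means was 2.06. Rac2 stood at 273.7 and 332.7 CPM in Exp-156, against 187.9 to 227.9 CPM in Exp-156b, a log2 fold change of 0.52 (SE 0.11, edgeR adjusted p = 0.00675). Without WT replicate 1 the log2 fold change of Rac2 was 0.30 and it no longer passed (edgeR adjusted p = 0.0829). Rac1 stood at 352.6 and 357.9 CPM in Exp-156, against 277.6 to 289.2 CPM in Exp-156b, a log2 fold change of 0.32 (SE 0.06, edgeR adjusted p = 0.00523).

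Cyba went the other way. It stood at 598.9 and 630.9 CPM in Exp-156, against 691.1 to 911.4 CPM in Exp-156b, a log2 fold change of -0.35 (SE 0.10, edgeR adjusted p = 0.0264). This call was lost when Tg-ACE replicate 1 was left out (-0.17, edgeR adjusted p = 0.274) or Tg-ACE replicate 2 (-0.36, edgeR adjusted p = 0.0513), and the value was -0.53 when WT replicate 1 was left out. Cybb, its partner in the membrane, stood at 872.6 and 885.9 CPM in Exp-156, inside the Exp-156b range of 717.9 to 966.9 CPM (log2 fold change 0.10, SE 0.10, edgeR adjusted p = 0.471). Ncf4 stood at 161.3 and 187.5 CPM in Exp-156, against 176.4 to 209.6 CPM in Exp-156b (log2 fold change -0.12, SE 0.10, edgeR adjusted p = 0.332). Without WT replicate 1 the Ncf4 value was -0.30 (edgeR adjusted p = 0.0727), and leaving out Tg-ACE replicate 1 turned it to 0.053.

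The proportions of the subunits within a library shifted accordingly. Per kb, the Ncf1 to Cyba ratio was 0.236 and 0.318 in Exp-156, against 0.0814 to 0.129 in Exp-156b. The Ncf1 to Ncf4 ratio, which sets 2 cytosolic subunits side by side, was 1.70 and 2.08 in Exp-156, against 0.764 to 0.981 in Exp-156b. Cyba made up 51.9% and 49.4% of the summed per-kb level of the 6 members in Exp-156, and between 58.5% and 67.3% in Exp-156b. These ratios restate the member values and were not tested.

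The starts of the 3 members found among the RefSeq promoter windows are printed on GRCm38.p6. Each covers 250 bases before and 50 after the annotated start on the reverse strand, 5′ to 3′. The RefSeq start of Cybb lies inside the longer GENCODE span given above. Ncf1 was higher in Exp-156, Cyba lower, and Cybb did not pass. Capitals mark matches on either strand to 5 motifs: the PU.1 core GAGGAA, the interferon response element (GAAA, any 2 bases, GAAA), the AP-1 motif TGANTCA, the CCAAT box and the GC box GGGCGG.
Ncf1, chr5:134229576-134229875: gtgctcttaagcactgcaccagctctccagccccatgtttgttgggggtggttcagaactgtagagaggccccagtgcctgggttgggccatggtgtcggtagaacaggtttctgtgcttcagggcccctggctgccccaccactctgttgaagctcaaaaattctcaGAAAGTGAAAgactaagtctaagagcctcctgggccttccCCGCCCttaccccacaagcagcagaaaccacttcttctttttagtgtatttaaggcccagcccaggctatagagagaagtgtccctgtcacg
Cyba, chr8:122432891-122433190: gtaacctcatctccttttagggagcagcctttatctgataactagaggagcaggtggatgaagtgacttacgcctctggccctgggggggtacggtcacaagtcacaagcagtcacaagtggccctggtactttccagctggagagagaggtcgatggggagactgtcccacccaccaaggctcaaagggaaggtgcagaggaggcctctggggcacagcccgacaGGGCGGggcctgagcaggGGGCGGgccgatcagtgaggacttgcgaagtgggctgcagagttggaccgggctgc
Cybb, chrX:9469275-9469574: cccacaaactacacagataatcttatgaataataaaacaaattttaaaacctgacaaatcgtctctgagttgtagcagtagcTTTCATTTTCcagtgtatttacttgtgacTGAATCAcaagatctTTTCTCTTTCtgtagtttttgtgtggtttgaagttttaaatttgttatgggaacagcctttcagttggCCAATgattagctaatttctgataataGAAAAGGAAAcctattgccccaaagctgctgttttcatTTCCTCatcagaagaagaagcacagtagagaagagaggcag

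The letters differ between these windows. The Cybb window held 3 interferon response elements, 1 AP-1 motif, 1 CCAAT box and 1 PU.1 core, the last after the start, and no GC box. The Cyba window held 2 GC boxes and none of the other motifs, and the Ncf1 window held 1 interferon response element and 1 GC box. No 2 matches overlapped. Among all 32851 promoter windows of the table, 3.44% held the interferon response element, 7.81% the AP-1 motif, 28.3% the PU.1 core, 35.7% the GC box and 37.4% the CCAAT box. These are matches of letters, and binding was not measured. A link between the motifs and the code differences was not tested.

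Read assignment could touch 2 members. Exons of Rac1 overlap those of Daglb on the opposite strand, and 49.7% of the 75-base stretches of Rac1 transcripts also occur in Daglb transcripts on one strand or the other. For Ncf1 and its opposite-strand neighbour Gtf2ird2 the share was 5.44%, and for Cybb, Cyba, Ncf4 and Rac2 it was 0%. The labels describe a stranded kit, and whether counting used strand is not stated in the sources used. Expected counts of Rac1, Ncf1, Daglb and Gtf2ird2 were not whole numbers, with 10035.3, 14155.4, 7511.73 and 439.63 in Tg-ACE replicate 1. Those of Cybb, Cyba, Ncf4 and Rac2 were whole in every library. How reads were divided between genes was not tested. Daglb stood at 264.0 and 265.9 CPM in Exp-156, against 352.9 to 387.0 CPM in Exp-156b. It was thus lower in Exp-156 (log2 fold change -0.48), where Rac1 was higher. Gtf2ird2 stood at 15.5 and 20.7 CPM in Exp-156, against 9.12 to 13.7 CPM in Exp-156b, far below Ncf1. Like Ncf1, it was higher in Exp-156 (0.59, edgeR adjusted p = 0.021). The part of shared reads in the Rac1 and Ncf1 differences was not tested.

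Markers of other cell types moved with the code as well, beside every code difference given here. The summed level of 13 neutrophil markers was 353.0 and 810.0 CPM in Exp-156, against 102.4 to 109.3 CPM in Exp-156b. Retnlg and Mmp9 carried most of that gap, and Retnlg had 128.5 and 438.1 CPM in Exp-156, against at most 1.23 CPM in Exp-156b. Of the 8 neutrophil markers tested 5 were higher in Exp-156 and 0 lower, where 22.9% of all tested genes were higher and 20.0% lower. The higher ones included S100a9, with 9.66 and 21.1 CPM in Exp-156, against at most 1.39 CPM in Exp-156b. Mmp8 had 15.8 and 20.5 CPM in Exp-156, against 5.84 to 7.98 CPM in Exp-156b. S100a8, Ltf and Cxcr2 did not pass, and S100a8 had 8.43 and 13.1 CPM in Exp-156, against 8.91 to 10.2 CPM in Exp-156b. The 5 markers not tested were the granule genes Mpo, Elane, Ngp and Camp and the surface marker gene Ly6g, all at or below 1.43 CPM in every library. Mpo, Elane, Ngp and Camp were each highest in an Exp-156b library, and Ly6g in an Exp-156 library. Monocyte and small macrophage markers summed to 4502 and 3694 CPM in Exp-156, against 527.0 to 1092 CPM in Exp-156b. Among them Ccr2, the chemokine receptor gene of recruited monocytes, had 175.8 and 192.3 CPM in Exp-156, against at most 6.14 CPM in Exp-156b. Large peritoneal macrophage markers summed to 198.9 and 331.5 CPM in Exp-156, against 25.8 to 29.9 CPM in Exp-156b, most of it from F5, while Gata6 had 6.78 and 5.32 CPM in Exp-156, against 12.6 to 17.8 CPM in Exp-156b. Eosinophil markers summed to 98.0 and 240.1 CPM in Exp-156, against 10.3 to 21.2 CPM in Exp-156b. Dendritic cell markers summed to 42.4 and 56.0 CPM in Exp-156, against 2.31 to 4.64 CPM in Exp-156b, and T and NK cell markers to 20.1 and 23.7 CPM in Exp-156, against 6.12 to 7.83 CPM in Exp-156b. The summed levels of these lists thus stood apart by code, whereas the next 3 sums overlapped. The 10 macrophage markers summed to 26962 and 27217 CPM in Exp-156, against 26048 to 29215 CPM in Exp-156b, a sum made up mostly of Lyz2 and Lgals3. Of the 11 rows for these markers 6 were nevertheless higher for the code, 2 lower and 3 did not pass. Itgam, the CD11b gene, averaged 1677 CPM in Exp-156 and 489.9 CPM in Exp-156b in its main row, Adgre1, the F4/80 gene, 638.3 CPM in Exp-156 and 273.6 CPM in Exp-156b, and Fcgr1 130.1 CPM in Exp-156 and 36.9 CPM in Exp-156b. Cd63 was lower, at 770.6 CPM in Exp-156 and 1353 CPM in Exp-156b, and so was Lgals3, at 4792 CPM in Exp-156 and 6729 CPM in Exp-156b. The 6 B cell markers summed to 196.6 and 233.1 CPM in Exp-156, against 195.0 to 297.4 CPM in Exp-156b, and the 5 mesothelial markers to 18.5 and 13.9 CPM in Exp-156, against 14.4 to 23.5 CPM in Exp-156b. The part of these cells in the member differences was not tested, and in bulk RNA more cells of a type and more RNA per cell cannot be told apart.

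**Figure D3:**
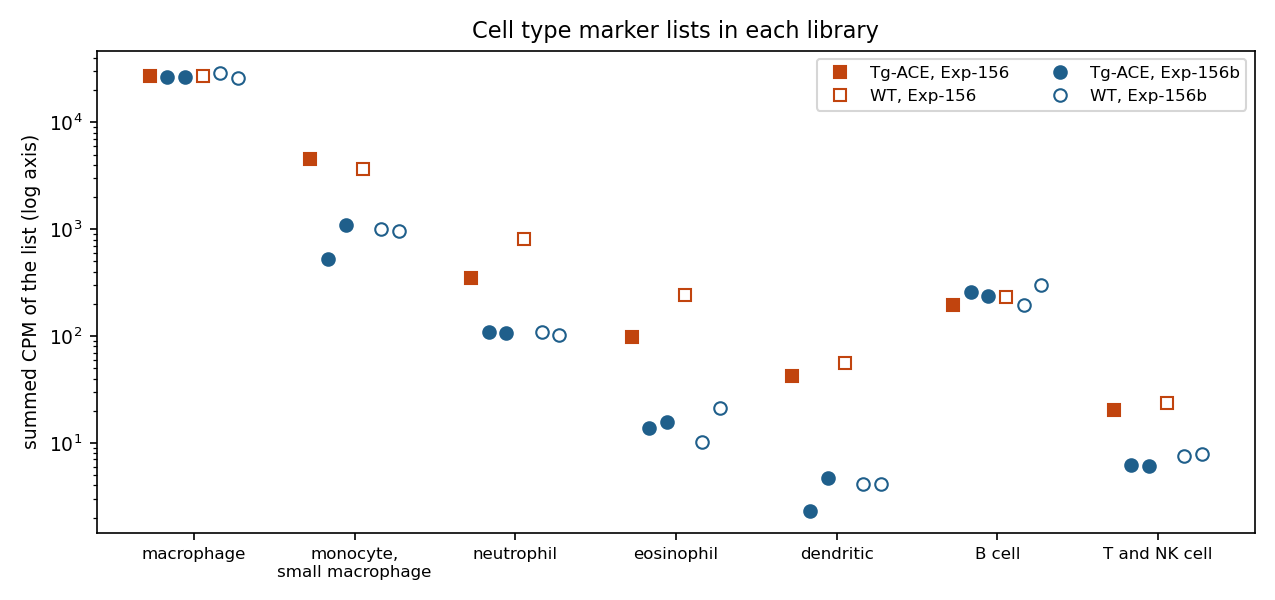
Summed CPM of 7 cell type marker lists in each library on a log axis; filled symbols are Tg-ACE and open symbols WT, squares Exp-156 and circles Exp-156b. For the summed levels the squares stand above the circles for monocyte, neutrophil, eosinophil, dendritic and T and NK cell markers and among them for macrophage and B cell markers.

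The genes whose profile over the 6 libraries was most like that of Ncf1, the member with the widest range, were Pnrc1, a nuclear receptor coactivator gene, Btg2, an antiproliferative gene, and Cdkn1b, a cell cycle inhibitor gene. Their root-mean-square differences from Ncf1 in centred log2 CPM were 0.038, 0.073 and 0.099 among 9729 candidate genes at 5 mean CPM or more. Pnrc1 stood at 58.2 and 76.0 CPM in Exp-156, against 29.7 to 35.6 CPM in Exp-156b. Of the other members Rac2 was the nearest to Ncf1 at 0.279 and Cyba the farthest at 0.689.

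Partner genes encode proteins that complete, fold or accompany the oxidase. Of 7 tested partner genes 0 passed for genotype, and for the code 5 were higher, 1 was lower and 1 did not pass (median log2 fold change 0.44). Over all tested genes 0.0156% passed for genotype, and 22.9% were higher and 20.0% lower for the code. Rap1b, a Ras-related GTPase gene, averaged 485.4 CPM in Exp-156 and 325.3 CPM in Exp-156b (log2 fold change 0.58, edgeR adjusted p = 0.0014). BC017643 encodes Eros, the chaperone needed for gp91phox protein, and averaged 95.9 CPM in Exp-156 and 66.6 CPM in Exp-156b (log2 fold change 0.53, edgeR adjusted p = 6.8e-04). Nrros, reported in mice to promote the loss of gp91phox protein, averaged 456.9 CPM in Exp-156 and 168.5 CPM in Exp-156b (1.44, edgeR adjusted p = 1.5e-04). The single lower gene was Hvcn1, the proton channel that balances the charge moved by the oxidase, which averaged 175.1 CPM in Exp-156 and 489.6 CPM in Exp-156b (-1.48, edgeR adjusted p = 1.2e-04). BC017643, Nrros and Hvcn1 transcripts thus passed for the code, while those of Cybb did not.

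Other NADPH oxidase enzymes were near or below the detection floor. Of 9 genes for other oxidases and their regulators, only Noxo1, an organizer of the NOX1 oxidase, reached the filter, at 0.945 to 1.75 CPM in Tg-ACE libraries and 1.74 to 2.11 CPM in WT libraries (log2 fold change -0.54, edgeR adjusted p = 0.791). Nox4 reached at most 0.177 CPM, Nox1 at most 0.106 CPM and Nox3 at most 0.041 CPM, where 3 counts correspond to between 0.105 and 0.123 CPM in a library. Duox2 and Duoxa2 had 0 counts in all libraries.

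Regulators and effectors of Rac, and the kinases and lipid enzymes of assembly, formed 2 further lists. Of the 20 Rac genes 0 passed for genotype, and for the code 12 were higher, 1 was lower and 7 did not pass (median 0.31), where 22.9% of all tested genes were higher and 20.0% lower. The exchange factor gene Tiam1 averaged 33.5 CPM in Exp-156 and 12.8 CPM in Exp-156b (log2 fold change 1.40), the GTPase-activating protein gene Arhgap15 31.6 CPM in Exp-156 and 15.5 CPM in Exp-156b (1.03), and the Rac effector kinase gene Pak2 185.1 CPM in Exp-156 and 131.1 CPM in Exp-156b (0.50). Abr, a GTPase-activating protein for Rac, was lower, at 156.2 CPM in Exp-156 and 255.4 CPM in Exp-156b (-0.71). Of 14 kinases and lipid enzymes 0 passed for genotype, and for the code 8 were higher, 0 lower and 6 did not pass (median 0.45). The higher ones included the Src family kinase gene Fgr (130.4 CPM in Exp-156 and 39.9 CPM in Exp-156b, log2 fold change 1.72), the phosphoinositide 3-kinase gene Pik3cd (225.0 CPM in Exp-156 and 93.7 CPM in Exp-156b, 1.26), and the kinase genes Mapk14 (163.9 CPM in Exp-156 and 88.4 CPM in Exp-156b, 0.89) and Irak4 (63.0 CPM in Exp-156 and 40.2 CPM in Exp-156b, 0.65). For genotype the smallest p in both lists was that of Pikfyve, a phosphoinositide kinase gene, at 51.0 ± 5.01 CPM in Tg-ACE and 58.0 ± 3.10 CPM in WT (SD, n = 3; edgeR unadjusted p = 0.0601, adjusted p = 0.775).

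**Figure D4:**
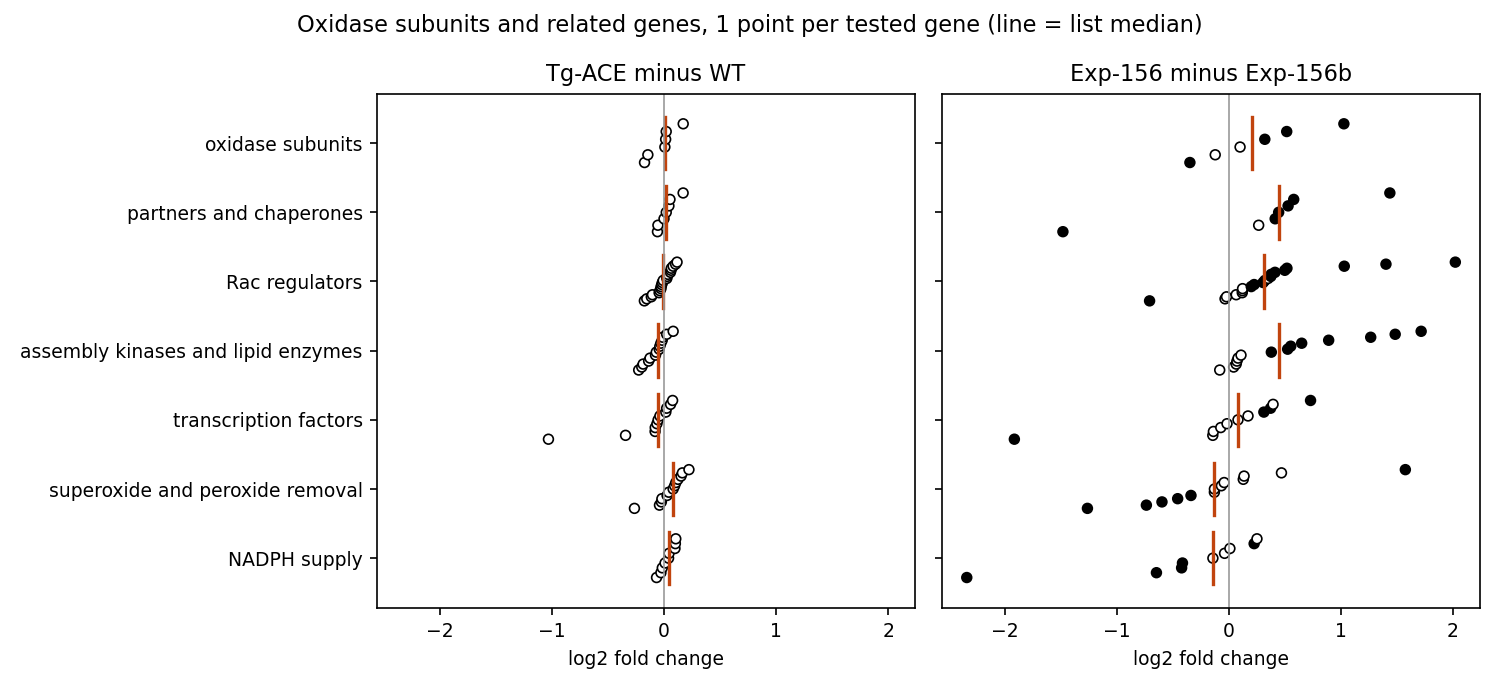
Log2 fold changes of the oxidase subunits and of 6 related gene lists, for Tg-ACE minus WT on the left and Exp-156 minus Exp-156b on the right; each point is a tested gene, filled where the edgeR adjusted p was under 0.05, and the line is the list median. All points on the left are open, and the medians on the right run from -0.14 for NADPH supply to 0.45 for assembly kinases and lipid enzymes.

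Of 11 tested transcription factors known to act on genes of the oxidase 0 passed for genotype, and for the code 3 were higher, 1 was lower and 7 did not pass (median 0.08), a share of calls no larger than the 42.9% of all tested genes. Cebpa averaged 247.6 CPM in Exp-156 and 149.5 CPM in Exp-156b (log2 fold change 0.73, edgeR adjusted p = 0.000295), and Irf8, a myeloid regulator of Cybb, 181.0 CPM in Exp-156 and 145.7 CPM in Exp-156b (0.31, edgeR adjusted p = 0.0193). Spi1, which encodes PU.1, averaged 298.6 CPM in Exp-156 and 314.4 CPM in Exp-156b and did not pass (-0.07, edgeR adjusted p = 0.517). The lower one was Hoxa9, at 0.172 CPM in Exp-156 and 0.686 CPM in Exp-156b (-1.92, edgeR adjusted p = 0.0173). Hoxa9 lay near the floor, with 4 and 5 counts in Exp-156 and 8 to 29 counts in Exp-156b. Cebpe, also on this list, was dropped by the low-count filter and is not in these counts. It had 9.52 and 28.8 CPM in Exp-156, against at most 0.288 CPM in Exp-156b.

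The last 2 lists hold enzymes that clear the products of the oxidase or supply its NADPH. Of 13 genes for superoxide and peroxide removal 0 passed for genotype, and for the code 1 was higher, 5 were lower and 7 did not pass (median -0.13), where 22.9% of all tested genes were higher and 20.0% lower. The higher one was Gpx1, a glutathione peroxidase gene, which averaged 2197 CPM in Exp-156 and 743.6 CPM in Exp-156b (log2 fold change 1.57, edgeR adjusted p = 3.5e-05). The lower ones included the thioredoxin reductase gene Txnrd1 (119.9 CPM in Exp-156 and 287.9 CPM in Exp-156b, -1.26), the peroxiredoxin gene Prdx1 (656.9 CPM in Exp-156 and 1093 CPM in Exp-156b, -0.74) and the thioredoxin gene Txn1 (442.7 CPM in Exp-156 and 670.8 CPM in Exp-156b, -0.60). For genotype Prdx4, an endoplasmic reticulum peroxiredoxin gene, had the smallest p, at 39.9, 51.9 and 58.0 CPM in Tg-ACE libraries, against 34.3, 45.0 and 49.1 CPM in WT libraries (log2 fold change 0.22, edgeR unadjusted p = 0.0165, adjusted p = 0.761). Of 9 genes that supply NADPH, 0 passed for genotype and 1 was higher, 4 were lower and 4 did not pass for the code (median -0.14), beside the same shares of all tested genes. G6pdx, which opens the pentose phosphate pathway, averaged 144.9 CPM in Exp-156 and 193.6 CPM in Exp-156b (-0.42, edgeR adjusted p = 0.0047), and Pgd and Taldo1 of the same pathway were also lower, with log2 fold changes of -0.42 and -0.65. The marker lists and sex-linked genes given above moved with the code beside all of these lists, and their part was not tested.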

How the data were processed

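RNA-seq libraries from 6 samples of thioglycollate-elicited macrophages were used. The unit is the expected count, in 1 gene table that the authors deposited without normalization. The submitters' processing notes list RSEM 1.2.25, STAR 2.5.0 and, as builds, GRCh38 and mm10, with no role for any. Whether counting used strand is not stated there. Expected counts were rounded to whole counts. The 92 spike-in rows summed to 1 count and were left out. The table held 0 columns of other samples, and no pair of libraries was identical.

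The test was the quasi-likelihood test of edgeR 4.0.16 under R 4.3.3, after filterByExpr and TMM scaling, the experiment code and genotype as terms, and Benjamini-Hochberg adjustment over 12827 genes. Standard errors were computed as the absolute log2 fold change over the root of its F statistic. CPM used TMM-scaled library sizes, and log2 CPM a prior count of 2. On simulated data 86.0% of 193 tested genes changed by a log2 of 1 for genotype were recovered among 12687 genes, and 17 unchanged genes were called as well, a larger share of the calls than the threshold of 0.05 allows. DESeq2 1.42.0, limma 3.58.1, other scaling, filters and terms, and leaving out single libraries were alternatives. The fit on genotype alone had a biological coefficient of variation of 0.310, against 0.108 with the code.

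Same-numbered libraries correlated at 0.856, 0.483 and 0.637 in their deviations from group means over genes, and crossed replicates 2 and 3 gave 0.615 and 0.539. Replicate 1 is also the only one of Exp-156, so these correlations cannot show whether libraries are paired by number. A replicate block was run as an alternative only. Positions and exon lengths came from GENCODE vM21 on GRCm38 and promoter windows from RefSeq, in which 3 of 6 members were found. The members and lists were chosen with earlier results of these data known. Named genes were the members, Ace, a few genes per list with the smallest p (up to 4 per contrast), and the 3 profiles nearest to the widest-ranging member. Genes in the text beyond these were chosen after their values were seen. Some genes related to the oxidase are not reported here and were left out of the lists. Depth limits cover counting error only.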

Additional observations from a re-analysis of the deposited data

How the results depend on the processing

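The call of 0 of 6 members for genotype held under every alternative run, with adjusted p from 0.457 upward. The 4 calls for the code held under the alternatives that kept all 6 libraries. At an unadjusted edgeR p under 0.05 for genotype, 1 of 6 members passed in Exp-156b alone, namely Cyba (log2 fold change 0.29). Without Tg-ACE replicate 2 it was also 1 of 6, namely Ncf1 (-0.32). Of all genes tested in these runs, 1331 and 767 passed in that way. The low-count filter was rerun in each, and no share of all genes is given beside the 1 of 6. Without Tg-ACE replicate 1 or without WT replicate 1 the Cyba value was likewise 0.29, with 1 library left in Exp-156. The replicate block changed no call of a member, with log2 fold changes of -0.14 for Cybb and -0.18 for Ncf1 for genotype and 1.03 for Ncf1 for the code. The number of genes called for genotype was 2 with the code as a term, 0 with genotype as the only term, 9 without a low-count filter and 38 in DESeq2, and 2 to 3 when 1 library was left out. Ace passed without the filter (1.95, edgeR adjusted p = 0.00414) and in DESeq2 (1.93, adjusted p = 3.8e-05), and ranged from 1.59 to 2.24 when 1 library was left out. With library totals in place of TMM factors the genotype values of Ncf4, Rac1 and Rac2 were -0.012, -0.016 and -0.022, and with genotype as the only term Rac2 was -0.028. Leaving out 1 library gave genotype ranges of -0.063 to 0.14 for Ncf4, -0.0028 to 0.032 for Rac1 and -0.088 to 0.15 for Rac2, -0.32 to -0.01 for Ncf1, -0.23 to -0.05 for Cybb and 0.10 to 0.29 for Cyba. For the code the ranges were -0.026 to 0.23 for Cybb, -0.53 to -0.17 for Cyba, 0.77 to 1.27 for Ncf1, -0.30 to 0.053 for Ncf4, 0.29 to 0.35 for Rac1 and 0.30 to 0.73 for Rac2, and the genes called were 3409 to 5260, against 5502 with all libraries. The low end came without either Exp-156 library, which leaves that code with 1 library. The cause of the other changes was not tested. With the longest transcript as the length, Cyba, Cybb and Ncf4 stood at 982.6, 177.4 and 126.3 CPM per kb and the order of the members was unchanged. With 2 libraries in Exp-156 and 3 per genotype, the small number of libraries limits these comparisons, and depth limits those near 3 counts.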

Other observations

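Within Exp-156, which holds 1 library per genotype, several oxidase and granulocyte genes were lower in the Tg-ACE than in the WT library. This pattern was picked after the values were seen and has no replicate. Ncf1 stood at 497.4 CPM in the Tg-ACE library and 706.2 CPM in the WT library, and Rac2 at 273.7 CPM in the Tg-ACE library and 332.7 CPM in the WT library. Ncf4 was also lower, at 161.3 CPM in Tg-ACE and 187.5 CPM in WT, and Cyba slightly so, at 598.9 CPM in Tg-ACE and 630.9 CPM in WT. Retnlg had 128.5 CPM in Tg-ACE and 438.1 CPM in WT, and Mmp9 79.2 CPM in Tg-ACE and 220.5 CPM in WT. The chemokine receptor gene Ccr3 had 55.3 CPM in Tg-ACE and 146.2 CPM in WT, and Cebpe, a granulocyte transcription factor gene, 9.52 CPM in Tg-ACE and 28.8 CPM in WT. Not all granulocyte genes were lower: Csf3r, on the neutrophil marker list, had 108.0 CPM in Tg-ACE and 91.6 CPM in WT. Other leukocyte genes also went that way. The monocyte and small macrophage markers summed to 4502 CPM in Tg-ACE and 3694 CPM in WT. Fcgr1 had 154.6 CPM in Tg-ACE and 105.7 CPM in WT. Cybb and Rac1 were both close to equal. Cybb stood at 885.9 CPM in the Tg-ACE library and 872.6 CPM in the WT library, and Rac1 at 352.6 CPM in Tg-ACE and 357.9 CPM in WT. Over all tested genes the median genotype log2 fold change in Exp-156 was -0.006. In the 4 Exp-156b libraries Ccr3 was at most 0.355 CPM and Cebpe at most 0.288 CPM, and the log2 fold change of Ncf1 there was -0.01. Rac2, Ncf4 and Cyba had the opposite sign there, with log2 fold changes of 0.15, 0.14 and 0.29. The part of other cells in the Ncf1 difference was not tested.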
